A study of Mus musculus with 18 samples.

Results

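The genes described here are 8 sensors, effectors and signalling partners of double-stranded RNA: Ddx58 (the gene of RIG-I), Ifih1 (MDA5), Dhx58 (LGP2), their adaptor Mavs, Tlr3, Zbp1, Eif2ak2 (the kinase PKR) and Adar (the editing enzyme ADAR1). They are a list of symbols named for their function, and each matched a single Ensembl identifier. All 8 are among the 47643 genes of the deposited count table and all 8 passed the filter on low counts, which left 14309 genes for testing. RNA was measured in 3 groups of 6 libraries from the mouse prostate cancer line MPC3. Libraries of the control group carry "plko", the name of a lentiviral hairpin vector, in their titles, and the others carry shRNF185.1 or shRNF185.3, a pair of short hairpin RNAs against Rnf185, which encodes a ubiquitin ligase of the endoplasmic reticulum. The labels place replicates 1 and 2 of every group in batch 1, replicates 3 and 4 in batch 2, and replicates 5 and 6 in batch 3. They do not say whether the control vector expresses a hairpin, whether a line is a clone, or whether the replicates are separate cultures. The p-values therefore measure only the spread between these libraries, as deposited after a batch adjustment. If the control expresses no hairpin, loss of Rnf185 and hairpin expression as such cannot be told apart.

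Double-stranded RNA in the cytosol is a sign of viral infection and also arises from a cell's own transcripts. RIG-I and MDA5 bind it and signal through MAVS on mitochondria to induce type I interferon, while TLR3 senses it in endosomes, ZBP1 senses Z-form RNA and can start necroptosis, and PKR halts translation by phosphorylating eIF2alpha. ADAR1 edits adenosines in double-stranded RNA and so restrains these sensors, and most of the sensor genes are themselves induced by interferon through the interferon-stimulated response element (ISRE), a promoter sequence.

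Promoter sequences are shown first, because a match to the core of that element was found at the start of some members. RefSeq promoter windows on GRCm38.p6, each of 300 bases (250 before and 50 after a transcription start), were available for 6 of the 8 genes, with 3 windows for Adar. Dhx58 and Zbp1 had none in that table. The ISRE core was searched as GAAANNGAAA on both strands and was found in the windows of Ifih1, Ddx58 and Eif2ak2, with its bases in capitals below (for Ddx58 on the opposite strand, so reversed and complemented).
Ifih1, chr2:62646206-62646235, minus strand: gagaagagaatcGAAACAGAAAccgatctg
Ddx58, chr4:40239804-40239833, minus strand: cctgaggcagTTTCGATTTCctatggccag
Eif2ak2, chr17:78882535-78882564, minus strand: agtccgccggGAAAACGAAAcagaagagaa
No match to these letters lay in the windows of Mavs, Tlr3 or Adar. Of all 32851 mouse promoter windows of the same length, 1131 (3.443%) held the core. Counted by gene, 1079 of 27025 (3.993%) had a window with the core.
These are letter matches, and binding was not measured.

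The libraries held between 22027400 and 43379700 counts, so that a floor of 3 counts stood at 0.0692 to 0.136 CPM. CPM here is the deposited library-scaled value, counts scaled by an effective library size. Rnf185, the targeted gene, averaged 35.9 ± 1.96 CPM in the control group (SD, n = 6), against 5.81 ± 0.582 under shRNF185.1 and 5.80 ± 0.546 under shRNF185.3, without overlap. The 9 epithelial markers summed to 1723 to 2552 CPM in control libraries, 1022 to 1765 with shRNF185.1 and 1184 to 1389 with shRNF185.3. Epcam was near 0 throughout. Of the 6 tested, 4 were lower and 1 higher with shRNF185.1 at edgeR adjusted p under 0.05, against 3 and 1 with shRNF185.3. Leukocyte markers summed to at most 5.17 CPM in any library, with 2 of 9 at 0 everywhere, and endothelial markers to at most 0.744 CPM. The 5 markers of plasmacytoid dendritic cells summed to 76.2 to 119 CPM in control, 91.6 to 201 with shRNF185.1 and 107 to 777 with shRNF185.3; Siglech was at 0 in all 18 libraries, and the 2 tested were Tcf4, not called with either hairpin, and Bst2, a gene also induced by interferon, which was higher with shRNF185.3 (log2 fold change 3.09, edgeR adjusted p = 0.00847) over a range of 16.9 to 681 CPM. Fibroblast markers summed to 2920 to 3944 CPM in control, 3450 to 4019 with shRNF185.1 and 3579 to 4180 with shRNF185.3. Most of each sum was vimentin (control mean 3201 CPM), which was not called with either hairpin. Col1a1 was called higher with both (log2 fold change 1.29 and 2.19), Dcn lower with shRNF185.1 (-2.11) and Pdgfra higher with shRNF185.3 (0.46). The part of these shifts in the results below was not tested. In bulk RNA, fewer cells that express a gene and less of its RNA per cell cannot be told apart.

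In the Rnf185 hairpin groups 5 of the sensor genes were higher than in control, the same 5 with either hairpin: Ddx58, Ifih1, Dhx58, Tlr3 and Zbp1. Their rises ran from 1.45-fold to 7.31-fold. Mavs, Eif2ak2 and Adar did not pass the test against control, and none of the 8 was lower. A gene was called at an edgeR adjusted p under 0.05, a rule that called 28.9% of all genes tested with shRNF185.1 (14.6% higher, 14.3% lower) and 27.3% with shRNF185.3 (14.2% higher, 13.2% lower), against 5 of 8 sensor genes higher and 0 lower with each. Called higher with both hairpins were 8.99% of all genes, and lower with both 7.14%. The median log2 fold change of the 8 genes was 0.68 with shRNF185.1 and 0.65 with shRNF185.3, where that of all genes was -0.02 in both. Both comparisons share the same 6 control libraries, so a gene's values in them are not independent.

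**Figure D1:**
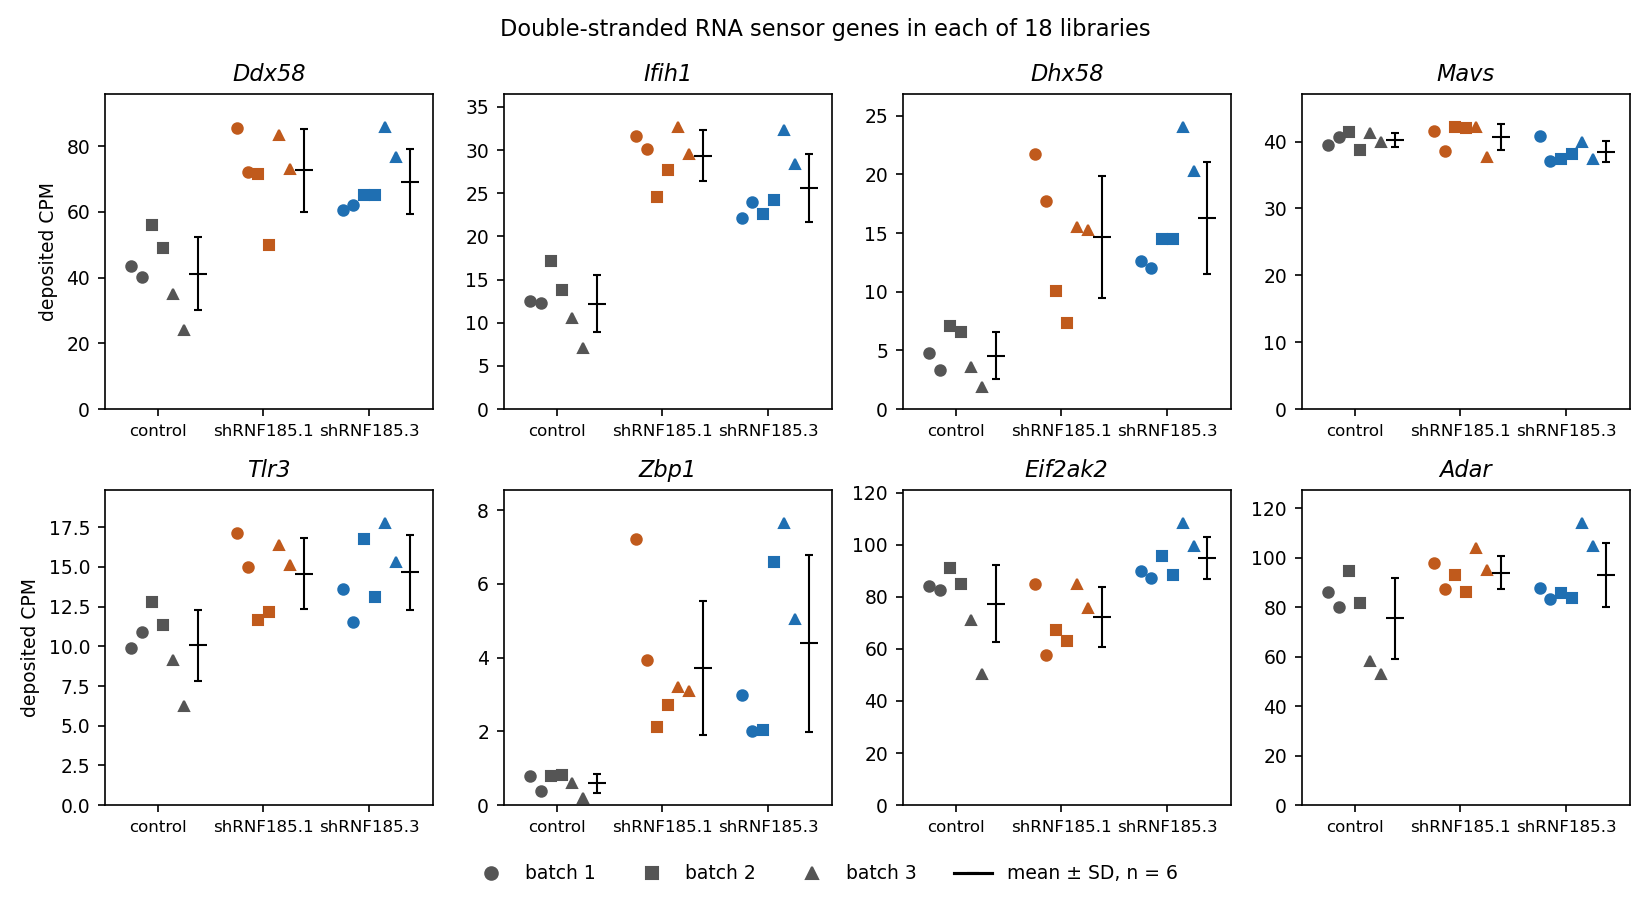
Deposited CPM of the 8 genes (y axis, linear, from 0) in each of the 18 libraries, by group (x axis) and batch (point shape), with mean ± SD of 6 libraries. Ifih1, Dhx58 and Zbp1 of both hairpin groups lie wholly above control, Mavs stays between 37.2 and 42.1 CPM, and the batch 3 controls average lowest for every gene but Mavs.

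The RIG-I-like receptors came first, as the group that signals through MAVS. Ifih1, whose product MDA5 binds long double-stranded RNA, lay between 7.06 and 17.1 CPM in control libraries (median 12.4), between 24.5 and 32.6 with shRNF185.1 (median 29.8) and between 22.1 and 32.3 with shRNF185.3 (median 24.1). The hairpin libraries thus did not overlap with control; all 6 stood above the highest control with each hairpin, a pattern shared by 7.00% of all genes for shRNF185.1 and 7.66% for shRNF185.3. In edgeR's fit shRNF185.1 raised it 2.40-fold, by 1.26 on the log2 scale (SE 0.15, adjusted p = 4.29e-06), and shRNF185.3 2.10-fold, by 1.07 (SE 0.15, adjusted p = 2.95e-05). The gene lies on chr2 from 62595798 to 62646255, minus strand (GRCm38).

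Dhx58 encodes LGP2, which lacks the signalling domains of the other 2 receptors and modulates them. Control libraries held 1.88 to 7.06 CPM (median 4.19), shRNF185.1 libraries 7.37 to 21.8 (median 15.4) and shRNF185.3 libraries 12.0 to 24.0 (median 14.5). Every hairpin library exceeded the highest control, but shRNF185.1 replicate 4, at 7.37 CPM, did so narrowly over control replicate 3 at 7.06. The rise by edgeR was 3.21-fold under shRNF185.1, a log2 change of 1.68 (SE 0.29, adjusted p = 0.000253), and 3.59-fold under shRNF185.3, a log2 change of 1.84 (SE 0.29, adjusted p = 0.000117). Dhx58 lies on chr11 from 100694884 to 100704271, minus strand. An opposite-strand gene, Dhx58os, covers 4.309% of its exons and had at most 5 counts in any library.

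Ddx58, which encodes RIG-I, the sensor of short double-stranded RNA with a 5′ triphosphate, was the most abundant of these receptors per length in every group. It ranged from 24.1 to 55.9 CPM in control (median 41.7), from 49.8 to 85.6 with shRNF185.1 (median 72.6) and from 60.5 to 85.7 with shRNF185.3 (median 65.2). All shRNF185.3 libraries and 5 of 6 shRNF185.1 libraries exceeded the highest control; shRNF185.1 replicate 4, at 49.8 CPM, fell within the control range. These differences came to 1.76-fold for shRNF185.1, a log2 change of 0.82 by edgeR (SE 0.16, adjusted p = 0.000819), and to 1.68-fold for shRNF185.3, a log2 change of 0.75 (SE 0.16, adjusted p = 0.00181). Without batch 3 the shRNF185.3 value was 0.43 and no longer passed (adjusted p = 0.0508). The gene spans chr4 from 40203773 to 40239828, minus strand.

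Mavs, the adaptor on which RIG-I and MDA5 converge, was the steadiest of the 8. Its level lay between 38.8 and 41.5 CPM in control (median 40.3), between 37.7 and 42.1 with shRNF185.1 (median 41.8) and between 37.2 and 40.9 with shRNF185.3 (median 37.8). The groups overlapped, with a coefficient of variation of 2.62% in control. The log2 fold change was 0.01 with shRNF185.1, with an interval of 2 standard errors from -0.07 to 0.10 (edgeR adjusted p = 0.835), and -0.06 with shRNF185.3, from -0.15 to 0.02 (adjusted p = 0.272). The receptors that feed into this adaptor thus rose in libraries where no change of the adaptor's own transcript passed the test. Mavs lies on chr2 from 131234063 to 131248025, plus strand.

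Tlr3, the endosomal receptor, rose less than the cytosolic receptors in value. Control libraries were at 6.21 to 12.8 CPM (median 10.4), shRNF185.1 libraries at 11.6 to 17.1 (median 15.0) and shRNF185.3 libraries at 11.5 to 17.7 (median 14.5). There was overlap at the low end: 4 of 6 shRNF185.1 and 5 of 6 shRNF185.3 libraries exceeded the highest control. By edgeR the gene rose 1.45-fold under shRNF185.1, a log2 change of 0.54 (SE 0.15, adjusted p = 0.00977), and 1.46-fold under shRNF185.3, a log2 change of 0.55 (SE 0.15, adjusted p = 0.00923). The call ended without batch 3, where the values were 0.32 with shRNF185.1 (adjusted p = 0.141) and 0.29 with shRNF185.3 (adjusted p = 0.185), and for shRNF185.1 also without batch 1 (0.48, adjusted p = 0.121). Summing each batch's 2 libraries of a group gave 0.56 with each hairpin, at adjusted p = 0.0599 and 0.0618. Tlr3 lies on chr8 from 45395665 to 45411080, minus strand.

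Zbp1, the Z-form nucleic acid sensor, showed the largest fold change of the 8 genes with either hairpin, from the lowest level. Control libraries held 0.188 to 0.817 CPM (median 0.694), which corresponds to 6 to 35 counts and lies above the floor of 3 counts. With shRNF185.1 the range was 2.13 to 7.23 CPM (median 3.16, 60 to 190 counts), and with shRNF185.3 it was 2.003 to 7.64 CPM (median 4.01, 53 to 212 counts). No hairpin library overlapped with control, though the libraries of a hairpin group differed among themselves by over 3-fold. edgeR put the rise at 6.18-fold under shRNF185.1, a log2 change of 2.63 (SE 0.42, adjusted p = 0.000102), and at 7.31-fold under shRNF185.3, a log2 change of 2.87 (SE 0.41, adjusted p = 4.12e-05). Zbp1 lies on chr2 from 173206612 to 173218923, minus strand.

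Eif2ak2 encodes PKR, and was the only member called between the hairpins, a marginal call described below. That comparison called 14.7% of all genes. It ranged from 50.4 to 91.1 CPM in control (median 83.3), from 57.6 to 84.9 with shRNF185.1 (median 71.6) and from 87.1 to 108 with shRNF185.3 (median 92.8). No library with shRNF185.1 exceeded the highest control and 3 of 6 with shRNF185.3 did. Neither hairpin passed against control: the log2 fold change was -0.10 with shRNF185.1 (2 standard errors: -0.34 to 0.14, edgeR adjusted p = 0.58) and 0.30 with shRNF185.3 (0.05 to 0.54, adjusted p = 0.0779). Without batch 3 the shRNF185.1 value was -0.33 and was called lower (adjusted p = 0.0279), while without control replicate 3 the shRNF185.3 value was 0.35 and was called higher (adjusted p = 0.0471). Its promoter window holds the ISRE core shown above, and the gene lies on chr17 from 78852564 to 78882573, minus strand.

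Adar, the editing enzyme that restrains the sensors, stood at 53.0 to 94.7 CPM in control (median 80.7), 86.0 to 104 with shRNF185.1 (median 94.2) and 83.5 to 114 with shRNF185.3 (median 86.6). The groups overlapped, with 3 and 2 of 6 hairpin libraries above the highest control. Its log2 fold change was 0.31 with shRNF185.1 (2 standard errors: 0.07 to 0.55, edgeR adjusted p = 0.0595) and 0.30 with shRNF185.3 (0.06 to 0.55, adjusted p = 0.0692), so neither passed. These values lay close to the threshold, and DESeq2 called both (adjusted p = 0.0365 and 0.0447). The size hung on the batches: without batch 2 it was 0.47 and 0.49, called with both hairpins (adjusted p = 0.0210 and 0.0226), and without batch 3 it was 0.09 and -0.01. Gene-level counts do not separate the interferon-inducible long form of ADAR1 from the constitutive short form. Adar lies on chr3 from 89715022 to 89753446, plus strand; Chrnb2 on the opposite strand covers 16.814% of its exons and had 30 to 55 counts per library.

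A direct comparison of the hairpins does not involve the control libraries. Eif2ak2 was 1.32-fold higher with shRNF185.3 (log2 difference 0.40, SE 0.12, edgeR adjusted p = 0.0342), and all 6 shRNF185.3 libraries, from 87.1 CPM, lay above the highest shRNF185.1 library at 84.9 CPM. The share of all genes with such a gap between the hairpins was not counted. Eif2ak2 was 1 of 8 called, where 14.7% of all genes were (7.72% higher and 6.94% lower with shRNF185.3). The call was a marginal one: it ended with the replicate number as a block (adjusted p = 0.0524), with batch as a covariate (0.0587), with library size alone as the scaling (0.0512), with libraries of a group and batch summed (0.112), without batch 1 (0.149) or batch 2 (0.191), and without any one of shRNF185.1 replicates 2, 3 and 4 or shRNF185.3 replicates 3, 5 and 6. The value itself kept between 0.34 and 0.45. For the 5 genes that rose, the differences were -0.07 for Ddx58 (2 standard errors: -0.39 to 0.25), -0.19 for Ifih1 (-0.49 to 0.10), 0.16 for Dhx58 (-0.39 to 0.71), 0.01 for Tlr3 (-0.28 to 0.31) and 0.24 for Zbp1 (-0.46 to 0.95), and none passed. The intervals for Dhx58 and Zbp1 are wide and leave room for a difference of over 1.5-fold.

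Levels of different genes were compared per length, as CPM per kilobase of annotated exon. In control libraries Eif2ak2 (15.1 ± 2.88), Mavs (12.0 ± 0.316) and Adar (9.32 ± 2.02) were highest, followed by Ddx58 (5.85 ± 1.57). Far below came Tlr3 (1.93 ± 0.433), Ifih1 (1.498 ± 0.410) and Dhx58 (1.39 ± 0.613), which overlapped within their SD, and last Zbp1 (0.169 ± 0.0736; SD, n = 6 libraries throughout). The 3 genes that were highest at the outset were the 3 that did not pass against control. With the hairpins Dhx58 reached 4.47 ± 1.59 and 4.99 ± 1.46 and rose from rank 7 to rank 5 of 8, while Tlr3, at 2.80 ± 0.428 and 2.82 ± 0.451, went from rank 5 to rank 7. With shRNF185.1 the levels of Adar (11.6 ± 0.823), Mavs (12.2 ± 0.587) and Ddx58 (10.3 ± 1.80) lay within about an SD of their neighbours, and Zbp1 remained lowest at 1.05 ± 0.516 and 1.24 ± 0.683.

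**Figure D2:**
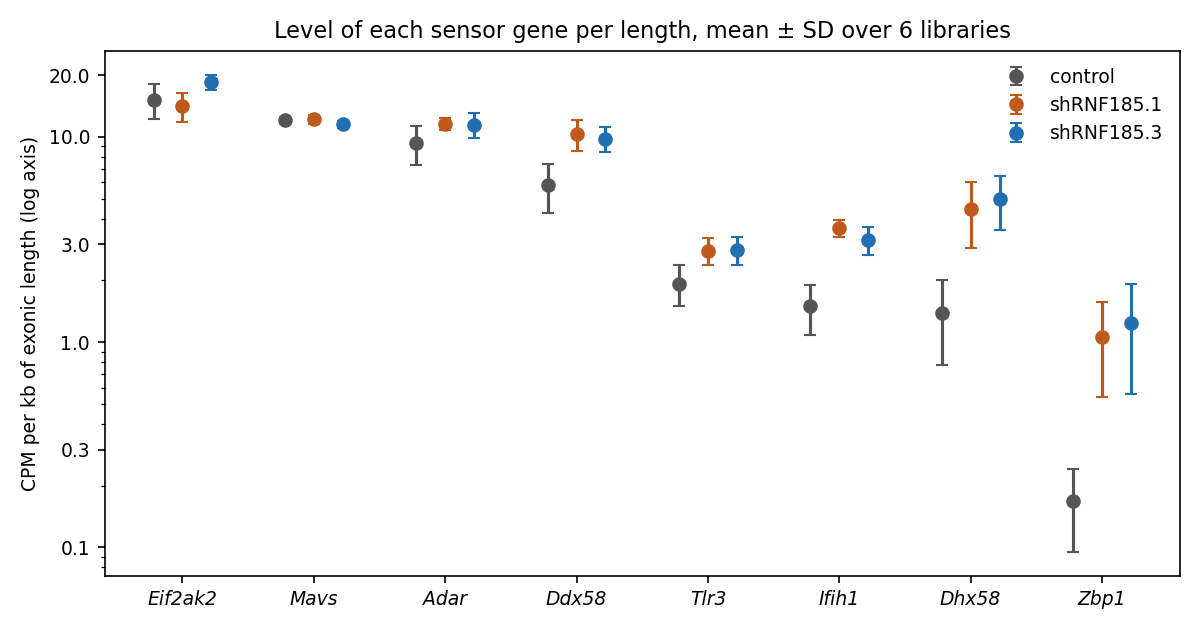
Level of each gene per length (y axis, deposited CPM per kilobase of annotated exon, log scale) in control, shRNF185.1 and shRNF185.3 libraries, as mean ± SD of 6 libraries. Control levels run from 0.169 for Zbp1 to 15.1 for Eif2ak2.

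Since every batch held 2 libraries of each group, the size of each change could be compared between batches. The shRNF185.1 effect differed between batches for 5 of 8 genes (edgeR interaction test; 14.3% of all genes) and the shRNF185.3 effect for 4 of 8 (5.18% of all genes). Ddx58, Ifih1, Dhx58 and Adar were called for both hairpins and Tlr3 for shRNF185.1. Dhx58 had the widest gap between batches for shRNF185.1, and for shRNF185.3 its gap of 1.94 was next to that of Zbp1 (1.96): the log2 effect of Dhx58 in batches 1, 2 and 3 was 2.28, 0.36 and 2.503 for shRNF185.1 (adjusted p = 0.00215), against 1.60, 1.08 and 3.03 for shRNF185.3 (adjusted p = 0.0119). Ifih1 rose in value in every batch, by 1.32, 0.76 and 1.82 for shRNF185.1 and by 0.90, 0.61 and 1.79 for shRNF185.3 (adjusted p = 0.0166 and 0.0181). For Adar the large values were those of batch 3, with effects of 0.16, 0.02 and 0.84 for shRNF185.1 and 0.05, -0.06 and 0.98 for shRNF185.3 (adjusted p = 0.0034 and 0.00145).

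The Ddx58 effects, in the same batch order, were 0.92, 0.21 and 1.40 for shRNF185.1 and 0.56, 0.32 and 1.46 for shRNF185.3 (edgeR interaction adjusted p = 0.0164 and 0.0336). Tlr3 had effects of 0.63, -0.02 and 1.04 for shRNF185.1 (adjusted p = 0.0291) and of 0.28, 0.31 and 1.11 for shRNF185.3 (adjusted p = 0.0867). Zbp1 was above control in every batch, by 3.22, 1.58 and 3.01 and by 2.06, 2.43 and 4.02, and its effect did not pass the test of a difference between batches (adjusted p = 0.295 and 0.328). Eif2ak2 had effects of -0.23, -0.44 and 0.41 for shRNF185.1 and of 0.09, 0.06 and 0.78 for shRNF185.3 (adjusted p = 0.0517 and 0.118). Mavs had effects between -0.09 and 0.06 in every batch with either hairpin. For the targeted gene Rnf185 the interaction adjusted p was 0.593 and 0.328.

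**Figure D3:**
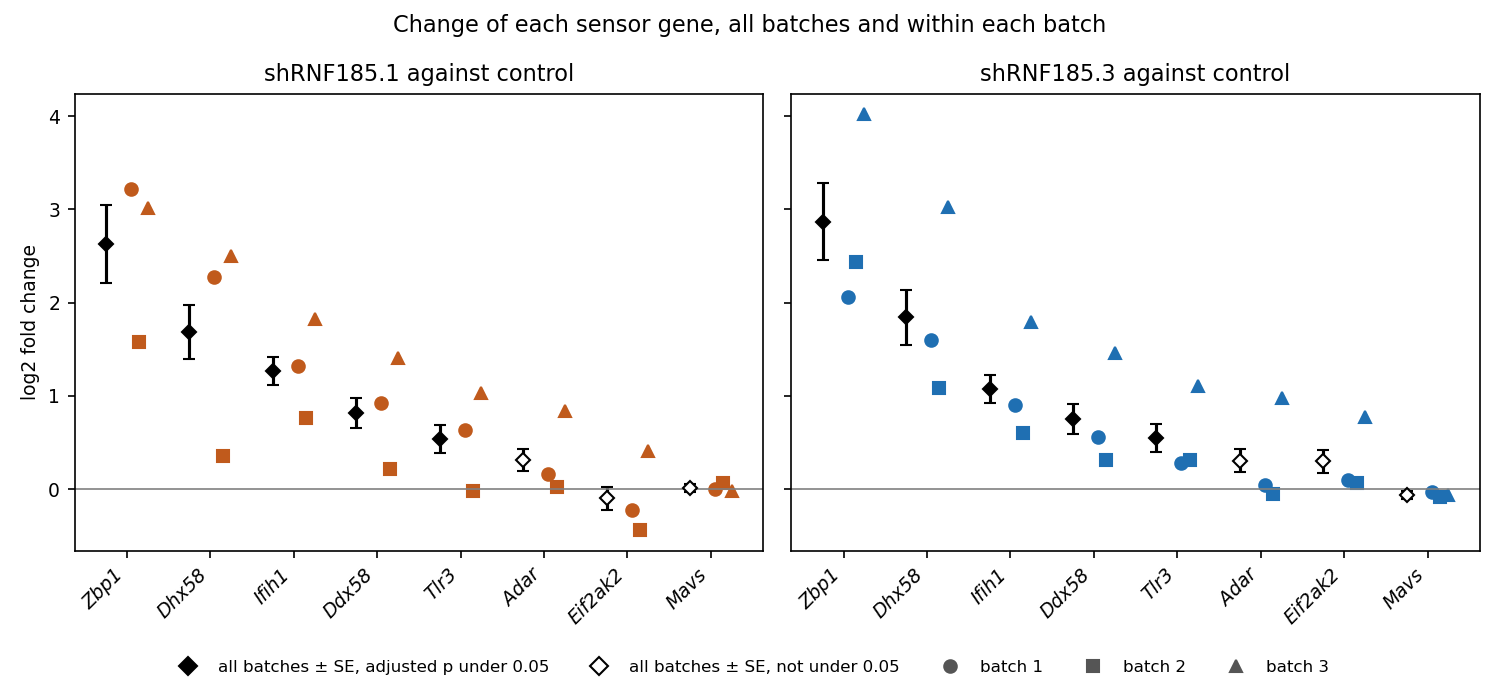
Log2 fold change against control (y axis) of each gene (x axis) for shRNF185.1 (left) and shRNF185.3 (right): diamonds with bars of 1 SE for all 18 libraries in edgeR's fit, filled where the adjusted p was under 0.05, and circles, squares and triangles for batches 1, 2 and 3. Zbp1, Dhx58 and Ifih1 lie highest, the triangles of batch 3 lie above the squares of batch 2 for every gene but Mavs with shRNF185.1 and for every gene with shRNF185.3, and the Mavs points lie near 0.

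The control libraries moved with these differences. Control replicate 6 of batch 3 was the lowest control for 7 of the 8 genes, and control replicate 3 of batch 2 the highest for 7. Control means in batches 1, 2 and 3 were 83.1, 88.2 and 55.7 CPM for Adar, 41.7, 52.4 and 29.6 for Ddx58, 12.4, 15.5 and 8.82 for Ifih1, but 40.1, 40.1 and 40.6 for Mavs. Averaged over all 6 libraries of a batch, Adar was at 87.1, 87.5 and 88.2 CPM, and its highest batch mean was 1.01 times the lowest, against 1.58 times among controls alone. The same ratio over all 6 libraries was 1.34 for Dhx58 and 1.31 for Zbp1, and at most 1.08 for the other genes. The deposited values had been adjusted for batch, so near-equal averages of whole batches can come from the adjustment and are not a finding about the genes. The levels before adjustment are not known here. The hairpin libraries shifted too. With shRNF185.3 the mean of batch 3 was the highest for every gene but Mavs, with Adar at 85.6, 84.6 and 109 CPM in batches 1, 2 and 3. With shRNF185.1 this held for Adar (92.7, 89.6 and 99.6 CPM), Ifih1 and Eif2ak2, and not for the other genes. A difference of the batch 3 cultures, in control or hairpin groups, and a shift of that batch's values in the adjustment cannot be told apart from these values.

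Apart from the differences between groups, the genes other than Mavs went up and down together from library to library. Over the 18 libraries, with each group's mean removed, the 21 pairs among these 7 genes had Pearson correlations of log2 CPM between 0.59 and 0.94 (median 0.85). The 7 pairs with Mavs lay between -0.12 and 0.19. Libraries of a batch share its adjustment, and the correlations are given as a description. The genes whose library-to-library pattern was most like that of Dhx58, by the same measure over 18 libraries, were Oasl2 (r = 0.98), Trim34a (0.96) and Parp9 (0.95). For Ddx58 they were Igtp (0.97), Phf11d (0.96) and Irf7 (0.96), for Ifih1 they included Dtx3l (0.95) and Trim25 (0.95), and for Tlr3 Parp14 (0.95), Trim12c (0.93) and H2-T24 (0.92). Zbp1 stood somewhat apart, with Acy3 (0.90), Bbs2 (0.89) and Cyp4v3 (0.88).

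The other genes of the pathway were examined by lists, and no list was tested as a set. For comparison with the counts below, 14.6% of all genes were higher and 14.3% lower with shRNF185.1, against 14.2% and 13.2% with shRNF185.3. With both hairpins, 8.99% of all genes were called higher and 7.14% lower. Of 21 genes of RIG-I-like receptor signalling, from ligases that act on the receptors to the kinases and transcription factors downstream of MAVS, 10 were higher and 2 lower under shRNF185.1, against 2 higher and 5 lower under shRNF185.3 (edgeR, adjusted p under 0.05). The list's median log2 fold change was 0.03 and 0.04, close to the -0.02 of all genes. In this list 2 of 21 genes were called higher with both hairpins and 2 lower, near the shares of all genes. Called higher with both hairpins were Tbkbp1, an adaptor of the kinase TBK1 (0.90 and 0.69), and Ikbkg, the regulatory subunit NEMO (0.47 and 0.28), and among those called lower with both was the kinase subunit Ikbkb (-0.19 and -0.26). Irf7, the interferon-inducible factor that drives interferon genes, was higher with shRNF185.1 (1.74, adjusted p = 0.00702) and at 1.23 with shRNF185.3 without passing (adjusted p = 0.0523). Among 16 genes that restrain this signalling, 1 was lower under shRNF185.1, against 1 higher and 4 lower under shRNF185.3. Tnfaip3, the ubiquitin-editing enzyme A20, was lower with both (-0.48 and -0.58). It was 1 of 16, again near the share of all genes lower with both.

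Of 9 partners of Tlr3 and Zbp1, 3 were higher and 0 lower under shRNF185.1, against 1 higher and 3 lower under shRNF185.3. Some of these partners also stand in the RIG-I-like receptor list, and the 2 lists that follow share a gene. Such genes are counted in each of their lists, so the counts are not separate. Unc93b1, the chaperone that carries TLR3 to endosomes, was the gene called higher with both: it rose from 4.25 ± 1.53 CPM in control to 9.55 ± 2.03 and 9.63 ± 1.77 (SD, n = 6 each), a log2 fold change of 1.16 and 1.18 (edgeR adjusted p = 0.000365 and 0.000346). The kinase list of eIF2alpha, the target of PKR, held 14 genes, of which 1 was higher and 2 were lower under shRNF185.1, against 4 higher and 1 lower under shRNF185.3. Eif2ak3, the endoplasmic reticulum kinase PERK, was higher with both (0.39 and 0.34) and Ppp1r15b, a phosphatase subunit that reverses the phosphorylation, was lower with both (-0.18 and -0.20). That was 1 of 14 genes in each direction, where 8.99% of all genes were higher and 7.14% lower with both. Among 14 tested of 15 other double-stranded RNA binding proteins, 0 were higher and 3 were lower under shRNF185.1, against 4 higher and 1 lower under shRNF185.3. Strbp was lower with both (-0.51 and -0.30), and Stau1, a transport and decay factor, was called in opposite directions, lower under shRNF185.1 (-0.17) and higher under shRNF185.3 (0.14).

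Another class of double-stranded RNA sensor, the oligoadenylate synthetases that activate RNase L, moved with the receptors. Of 14 listed genes 10 were tested, and 8 were higher and none lower with each hairpin, the same 8, with a median log2 fold change of 2.25 and 2.23. Of all genes tested, 14.6% were higher with shRNF185.1, 14.2% with shRNF185.3 and 8.99% with both. Oas1g (4.40 and 3.22), Oas2 (4.10 and 3.11) and the helicase Ddx60 (3.29 and 2.79) had the largest rises by the weaker hairpin, all from control means under 0.32 CPM with some control libraries at 0 counts. Genes of the Oas1 cluster are related copies whose likeness was not measured here, and how reads were split among them is uncertain. Of 11 genes of interferon receptors and their signalling, 7 were higher with shRNF185.1 and 6 with shRNF185.3, and none was lower; the negative regulators Usp18 and Socs1 rose, Usp18 by 1.93 and 1.70 and Socs1 by 0.41 and 0.41. The ligands themselves were hardly present: of 21 interferon genes, 12 were at 0 in all 18 libraries, 20 had at most 3 counts in any library, and Ifnz, the exception, had at most 12. None was tested, and transcripts under the floor of 3 counts were not detectable at this depth.

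**Figure D4:**
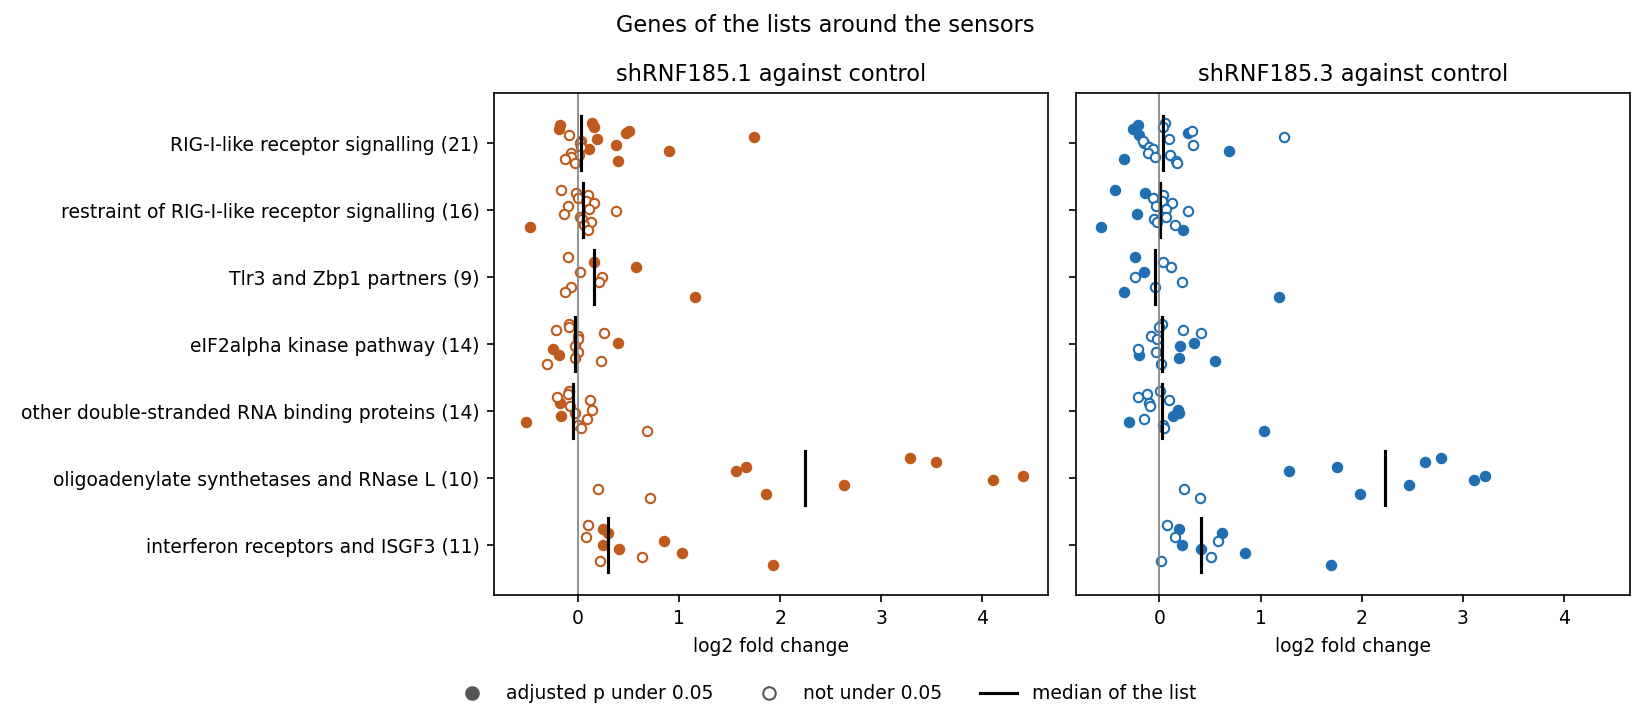
Log2 fold change against control (x axis) of each tested gene of the pathway lists (y axis, with the number tested) for shRNF185.1 (left) and shRNF185.3 (right); a point is a gene, filled where the adjusted p was under 0.05, and a vertical bar is the median of the list. The oligoadenylate synthetase list lies farthest to the right, with medians of 2.25 and 2.23, and the RIG-I-like receptor signalling list has medians of 0.03 and 0.04.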

How the data were processed

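Per the submitters' processing notes, cutadapt 2.3, STAR 2.7.0d, RSEM 1.3.1 and the mm10 build were used; their roles, the strand setting and whether the batch adjustment was told the groups are not given in the sources used here. The authors deposited a table of estimated counts per Ensembl gene, named for ComBat-Seq, a batch adjustment of counts; 0.466% of its values are not whole (none in the 8 genes), so values were rounded. The design had assumed whole counts, and its test was kept. The deposited CPM are a normalised signal: each equals the count over a TMM effective library size (relative difference at most 1.04e-06).

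Counts were tested in R 4.3.3 with edgeR 4.0.16: filterByExpr with a minimum count of 10, TMM scaling, a mean per group over 18 libraries, the quasi-likelihood F test and Benjamini-Hochberg adjustment over 14309 genes. The counts had been adjusted for batch and this fit had no batch term. Its spread leaves out what the adjustment removed, so its p-values may be too small. With batch as a covariate, 24.9% of all genes were called with shRNF185.1 and 22.8% with shRNF185.3, against 28.9% and 27.3% in the main fit. Batch differences were tested as a hairpin-by-batch interaction, with the same filter, scaling and adjustment. Alternatives used DESeq2 1.42.0, limma 3.58.1 (voom, and log2 of the deposited CPM plus 1 or 0.1), a batch term, a replicate block, summed libraries and omitted libraries or batches. Totals were 22027400 to 43379700 counts; floors cover counting error only. No pair of libraries of a group agreed within sampling noise (chi-square of at least 7.64 per gene in 45 pairs).

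Positions and exon lengths are from GENCODE M21 on GRCm38, promoters from RefSeq on GRCm38.p6. The members and lists were chosen with earlier results of these data known. Named genes are the 8 members, Rnf185, per list up to 3 genes with the largest change called alike with both hairpins, any gene called in opposite directions, and the 3 genes most like each called member; markers and interferon ligands are named beside their counts, and Chrnb2 and Dhx58os because they overlap a member. A gene that this rule names is not reported here.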

Additional observations from a re-analysis of the deposited data

Results flagged for a closer look

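Ddx58 in shRNF185.1 replicate 4 stood apart from the other 5 libraries of its group, at a log2 CPM of 5.64 (49.8 CPM), while the next lowest was at 71.6 CPM. Of 24 groups of 6 values checked in this way, this was the only one past the limit; chance gives about 1 in 20, or 1.2 here.

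Eif2ak2 was called between the hairpins, with a difference of 0.40 on the log2 scale. The call held under 18 of 30 alternatives, and 14.7% of all genes were called in that comparison.

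The size of the change differed between batches by the edgeR interaction test. With shRNF185.1 the highest batch effect exceeded the lowest, on the log2 scale, by 1.19 for Ddx58, 1.06 for Ifih1, 2.15 for Dhx58, 1.06 for Tlr3 and 0.82 for Adar. With shRNF185.3 the gap was 1.14 for Ddx58, 1.18 for Ifih1, 1.94 for Dhx58 and 1.03 for Adar. Both sets of effects use the same control libraries.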

How the results depend on the processing

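Ifih1, Dhx58 and Zbp1 were called higher with both hairpins under all 30 alternatives; Ddx58 was called in 30 with shRNF185.1 and 29 with shRNF185.3, and Tlr3 in 27 and 28. The number of sensor genes called with shRNF185.1 was 4 to 6 (5 to 6 with 1 library left out). The share of all genes called in these fits ran from 12.7% to 35.7%, against 28.9% in the main fit. It was 22.6% with libraries summed and 15.5% without batch 1, which each called 4 sensor genes. With shRNF185.3, 5 to 7 sensor genes were called with 1 library left out, beside 23.0% to 27.8% of all genes. Without batch 3 the number was 3 (Ifih1, Dhx58 and Zbp1), beside 17.4% of all genes, against 27.3% in the main fit. The number whose effect differed between batches was 5 to 7 with shRNF185.1 and 4 to 7 with shRNF185.3 over 4 alternatives. It was 7 with each hairpin under a filter of a summed count of at least 1, and 6 with each by DESeq2. The share of all genes in these alternatives was not counted. Between the hairpins the number called was 0, in place of 1, with library size alone, with a batch covariate, with libraries summed, and without batch 1 or batch 2, and 0 to 1 with 1 library left out. In the order of these first 5 fits, the share of all genes called between the hairpins was 14.5%, 11.4%, 11.7%, 5.27% and 8.42%. The cause was not tested.

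With the replicate number as a block, that number was also 0, and the counts against control were 5 with each hairpin, as without it. Whether the numbers pair libraries was not settled. Same-numbered libraries of different groups had a mean correlation of deviations of -0.01 over 9671 genes (-0.63 to 0.71 in 18 pairs). Within a batch, other numbers were less alike, at -0.43 (-0.78 to 0.10 in 18 pairs). Other batches were at 0.11, and 2 of 18 libraries correlated best with their own number. Libraries of a batch share its adjustment, so values within and between batches are not directly comparable.

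Some differences changed sign, none of them called. Without batch 1, the difference between hairpins was 0.078 for Ddx58 and 0.039 for Adar. Without batch 2, it was -0.032 for Dhx58, -0.13 for Tlr3 and 0.018 for Adar, and the shRNF185.1 effect was -0.012 for Mavs and 0.076 for Eif2ak2. Without batch 3, the difference between hairpins was -0.085 for Dhx58, -0.023 for Tlr3 and -0.21 for Zbp1, and the shRNF185.3 effect was -0.0057 for Adar. With 1 library left out, the difference between hairpins ranged from -0.049 to 0.074 for Tlr3 and from -0.075 to 0.022 for Adar.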
